A study of Mus musculus with 12 samples.

Results

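The ribosome biogenesis factors described here are the 76 genes, of 56980 in the deposited matrix, whose annotation names the KEGG map "Ribosome biogenesis in eukaryotes". They were followed across bulk RNA sequencing of 12 livers. All mice were male and of the ob/ob strain B6.Cg-Lepob/J (Lep-/-), so both groups lacked leptin, the satiety hormone, and were genetically obese. Of these mice, 6 ate a low protein chow (LPD), with 5% of its energy from protein, and 6 ate a standard protein chow (SPD), with 25%. All 12 were 8 weeks old at the start, had free access to their chow for 3 weeks and were 11 weeks old at harvest. The comparison asks which liver mRNAs differed with the protein content of the chow. The labels give separate mice as the samples of a diet, and name no batch.

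A ribosome is assembled in the nucleolus around ribosomal RNA (rRNA) that RNA polymerase I transcribes as 1 long precursor. Small nucleolar RNPs fold and chemically modify the precursor, and the UTP-A, UTP-B, UTP-C and U3 particles wrap its start into the 90S complex, from which the small 40S subunit is cut free. Nucleases trim the ends, while GTPases and AAA ATPases remodel the large 60S subunit before export factors carry both subunits to the cytoplasm. In liver, as in other tissues, this assembly is known as one of the most costly activities of a cell and as one that answers to nutrients. Here mRNA levels were measured, not rRNA, ribosomes or protein synthesis.

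Livers on LPD had more mRNA for many of these factors and for none of them significantly less. Of the 76 genes, 70 passed the filter on low counts and were tested, and 41 (58.6%) were higher in LPD livers at an adjusted p under 0.05, here a call. Over all 13768 genes tested, 20.7% were called higher and 19.2% lower. By edgeR 0 of the 70 were called lower, 0 lower estimates had an unadjusted p under 0.05, and DESeq2 and limma-voom called 0 lower too. For 29 of them every LPD liver lay above every SPD liver, and for 0 every LPD liver lay below, against 10.2% and 9.73% of all genes tested. The median log2 fold change (LPD over SPD) of the 70 was 0.28, with a range of -0.22 (Pop7) to 0.76 (Nop56), beside a median near 0 over all genes (-0.0006).

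The differences were small and broad. Among the 41 called genes the median log2 difference was 0.41, beside 0.35 over all genes called higher, and the smallest was 0.15 (Rbm28). Only 3 of the 41, Nop56, Gar1 and Mdn1, were over 1.5-fold higher, against 19.5% of all genes called higher. Summed over the 76 genes, normalised read counts came to 1781 ± 51.8 CPM (counts scaled to a common library total) in LPD livers and 1562 ± 25.7 CPM in SPD livers (mean ± SD, n = 6), with LPD livers between 1719 and 1857 CPM and SPD livers between 1537 and 1601 CPM. In bulk RNA, more mRNA per cell and more cells of a type that carries it cannot be told apart.

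**Figure D1:**
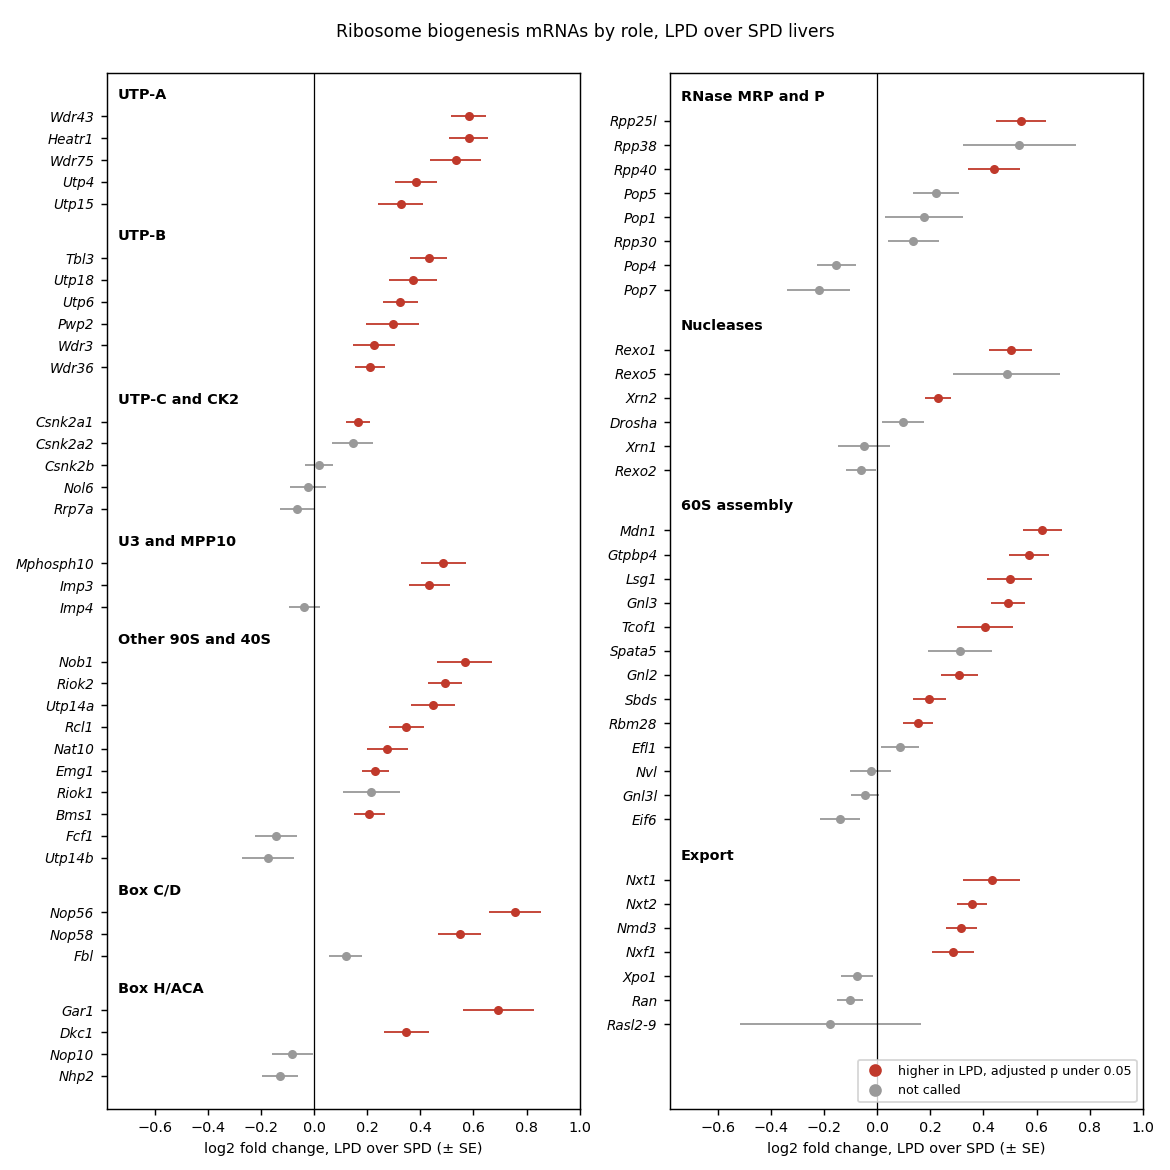
Log2 fold change (LPD over SPD, ± SE) of the 70 tested ribosome biogenesis genes by role, with called genes in red and the others in grey. All called genes lie right of 0, and every tested UTP-A and UTP-B gene is among them.

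The libraries held 19374676 to 23710930 counts each, with 18094 to 18998 genes detected. The 10 most abundant genes held 14.99 to 17.33% of the counts in LPD livers and 20.63 to 22.85% in SPD livers, so fewer counts were left for other genes in SPD livers before scaling. Pearson correlations of libraries were 0.9798 to 0.9883 within a diet and 0.9544 to 0.9767 between the diets, and no 2 libraries of a diet agreed within counting noise. For LPD replicate 1 the title and library code say LPD, whereas 2 other labels give it the 25% chow. It was kept in LPD. The number of called members is also given without it and with it counted as SPD. Role counts, overlaps, summed levels, markers and related lists are given only with it in LPD. The library codes (LP4 and LP5 for LPD, SP1 and SP2 for SPD) do not cross the diets, so a batch marked by them and the diet cannot be told apart.

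Promoter sequences were searched for the E-box CACGTG, the letters bound by MYC and MAX, a factor pair known to drive genes of ribosome assembly. RefSeq windows (GRCm38.p6, 250 bases before the start to 50 after it) matched 63 of the 76 genes, and 58 of the 70 tested. The motif reads the same on both strands. It stood in 13 of the 58 (22.4%), against 11.7% of 10049 tested genes with a window and 7.15% of all 32851 windows. It was in 6 of 35 called genes and in 7 of 23 not called. The 6 sites of called genes are shown with up to 12 bases on either side, on the gene's strand and with the E-box in capitals. Distances are from the RefSeq start, which can differ from the GENCODE start behind the gene coordinates given later. The GENCODE start of Wdr43 lies further upstream. The sites of Wdr43, Utp4, Xrn2 and Mdn1 are inside the GENCODE gene, and those of Utp18 and Nmd3 lie before its start.
Wdr43 (chr17:71616220-71616249, plus strand, 17 bases after the start): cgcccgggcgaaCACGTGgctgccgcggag
Utp4 (chr8:106893643-106893672, plus strand, 15 bases after the start): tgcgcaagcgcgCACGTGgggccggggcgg
Utp18 (chr11:93885769-93885798, minus strand, 20 bases before the start): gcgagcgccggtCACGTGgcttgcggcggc
Xrn2 (chr2:147013008-147013037, plus strand, 21 bases after the start): ggccgctgaacgCACGTGggaggaagtgct
Nmd3 (chr3:69721929-69721958, plus strand, 114 bases before the start): cgccccttgctaCACGTGtattctttgacc
Mdn1 (chr4:32657145-32657168, plus strand, 38 bases after the start, cut short by the window's end): gaattccttcacCACGTGtgtgtc
The bases around the motif differ between the 6 sites, and whether called members hold the motif more or less often than the others was not tested.

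The stretch before the start of Mdn1, the called gene with the second smallest adjusted p of the set, is shown for its CpG pairs. Its 250 bases (chr4:32656869-32657118, plus strand) hold 20 CpG pairs, in capitals.
Mdn1 upstream: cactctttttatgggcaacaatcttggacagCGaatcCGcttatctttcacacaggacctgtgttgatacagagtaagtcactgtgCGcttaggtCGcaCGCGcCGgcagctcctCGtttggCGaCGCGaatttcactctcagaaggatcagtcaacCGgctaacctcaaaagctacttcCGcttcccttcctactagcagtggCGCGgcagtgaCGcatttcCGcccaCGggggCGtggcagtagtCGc
The median over the windows of the 58 tested members was 18 CpG pairs per window of 300 bases, beside 15 over the windows of tested genes and 6 over all windows.

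The UTP-A complex, which binds the first stretch of the rRNA precursor and is also needed for its transcription, was higher as a whole: 5 of 5 genes were called, with a median log2 difference of 0.53. Wdr43, a WD-repeat subunit (ENSMUSG00000041057, chr17:71615895-71659031, plus strand), had the smallest adjusted p of all 70 genes. Its levels were 25.0, 27.7 and 32.6 CPM (lowest, median and highest) in LPD livers, against 17.3, 18.6 and 19.9 CPM in SPD livers. The diets did not overlap, and the log2 fold change was 0.58 ± 0.066 (SE), or 1.498-fold (adjusted p = 8.59e-06). Heatr1, the large scaffold of the complex (chr13:12395027-12440289, plus strand), had 19.2, 22.8 and 24.7 CPM in LPD livers, against 13.6, 14.9 and 16.3 CPM in SPD livers. Again every LPD liver was above every SPD liver (0.58 ± 0.073, adjusted p = 2.39e-05). Wdr75 had 11.9, 14.7 and 16.1 CPM in LPD livers, against 8.44, 9.66 and 12.1 CPM in SPD livers, with 1 pair of livers overlapping at the edge (0.53 ± 0.097, adjusted p = 0.000515). Utp4 (0.38 ± 0.080) and Utp15 (0.33 ± 0.084) were higher as well, and SPD replicate 3 reached into the LPD range of Utp15.

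The UTP-B complex, which docks next to UTP-A and holds the U3 RNA in place, was also called in full, 6 of 6 genes, with a median of 0.31. Tbl3 (ENSMUSG00000040688, chr17:24697949-24707660, minus strand) had 17.5, 19.5 and 21.6 CPM in LPD livers, against 13.0, 14.3 and 15.5 CPM in SPD livers. Its diets were fully apart (0.43 ± 0.069, adjusted p = 0.000171). Utp18 (0.37 ± 0.089), Utp6 (0.32 ± 0.065) and Wdr36 (0.21 ± 0.056) did not overlap either. Pwp2 (0.30 ± 0.099, adjusted p = 0.0264) and Wdr3 (0.22 ± 0.079, adjusted p = 0.0343) overlapped, and their calls were lost when single livers were left out. The Pwp2 call was lost without any 1 of LPD replicates 2 and 6 and SPD replicates 2, 5 and 6, and the Wdr3 call without any 1 of LPD replicates 2, 3 and 6 and SPD replicates 1, 5 and 6, with adjusted p up to 0.0619 and 0.0760.

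Of UTP-C and its partner casein kinase 2, 1 of 5 genes was called (20%, near the 20.7% of all genes), and the median was 0.018. Csnk2a1, a catalytic subunit of the kinase (ENSMUSG00000074698, chr2:152226839-152281852, plus strand), had 106, 112 and 121 CPM in LPD livers, against 97.5, 100.1 and 104 CPM in SPD livers. The groups did not overlap, but the fold was 1.12 (0.17 ± 0.045, adjusted p = 0.00838). The second catalytic subunit Csnk2a2 had an estimate of 0.15 ± 0.078 (adjusted p = 0.150). The regulatory subunit Csnk2b (0.018 ± 0.053), the UTP-C scaffold Nol6 (-0.024 ± 0.068) and Rrp7a (-0.065 ± 0.065) lay close to 0, and casein kinase 2 also acts on many proteins outside the nucleolus.

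Of the U3-bound MPP10 complex, Mphosph10 and Imp3 were called and Imp4 was not. Mphosph10 (ENSMUSG00000030521, chr7:64376527-64392268, minus strand) had 9.63, 11.5 and 12.7 CPM in LPD livers, against 7.51, 7.98 and 8.61 CPM in SPD livers. No LPD liver fell into the SPD range (0.49 ± 0.084, adjusted p = 0.000347). Imp3, which helps U3 pair with the precursor, was as clearly apart (0.43 ± 0.077, adjusted p = 0.000431). Imp4 had 23.8, 26.3 and 29.1 CPM in LPD livers, against 24.6, 27.5 and 28.1 CPM in SPD livers, and an estimate of -0.037 ± 0.058.

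Other factors of the 90S and 40S particles were higher in 7 of 10 cases, with a median of 0.25. Nob1, the endonuclease that makes the final cut of small-subunit rRNA (chr8:107412486-107425051, minus strand), had 8.92, 10.6 and 13.2 CPM in LPD livers, against 6.75, 7.16 and 8.44 CPM in SPD livers. The lowest LPD liver was above the highest SPD liver (0.57 ± 0.10, adjusted p = 0.000578). Riok2, an ATPase of late pre-40S particles (ENSMUSG00000116564, chr17:17374309-17394899, plus strand), had 44.5, 46.9 and 55.2 CPM in LPD livers, against 30.9, 35.1 and 36.6 CPM in SPD livers. It had the smallest adjusted p of the class, without overlap (0.49 ± 0.065, adjusted p = 3.18e-05). Utp14a, a cofactor of the helicase that removes U3, had 11.7, 12.8 and 13.97 CPM in LPD livers, against 8.10, 9.54 and 10.6 CPM in SPD livers (0.45 ± 0.083, adjusted p = 0.000616), and its diets were apart. Nat10, which acetylates small-subunit rRNA, had 13.99, 14.9 and 18.9 CPM in LPD livers, against 12.0, 13.1 and 13.3 CPM in SPD livers (0.28 ± 0.077, adjusted p = 0.00977). Its groups were separate too, with 1 LPD liver, replicate 2, well above the rest.

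The cyclase-like protein Rcl1 (0.35 ± 0.065), the rRNA methyltransferase Emg1 (0.23 ± 0.050) and the GTPase Bms1 (0.21 ± 0.057) completed the called genes of this class. Its other 3 genes were the kinase Riok1 (0.21 ± 0.11, adjusted p = 0.126), the endonuclease Fcf1 (-0.14 ± 0.078) and Utp14b (-0.17 ± 0.099). Utp14b, an autosomal copy of X-linked Utp14a, shares exon space with Acsl3 on the same strand, so its reads are uncertain.

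**Figure D2:**
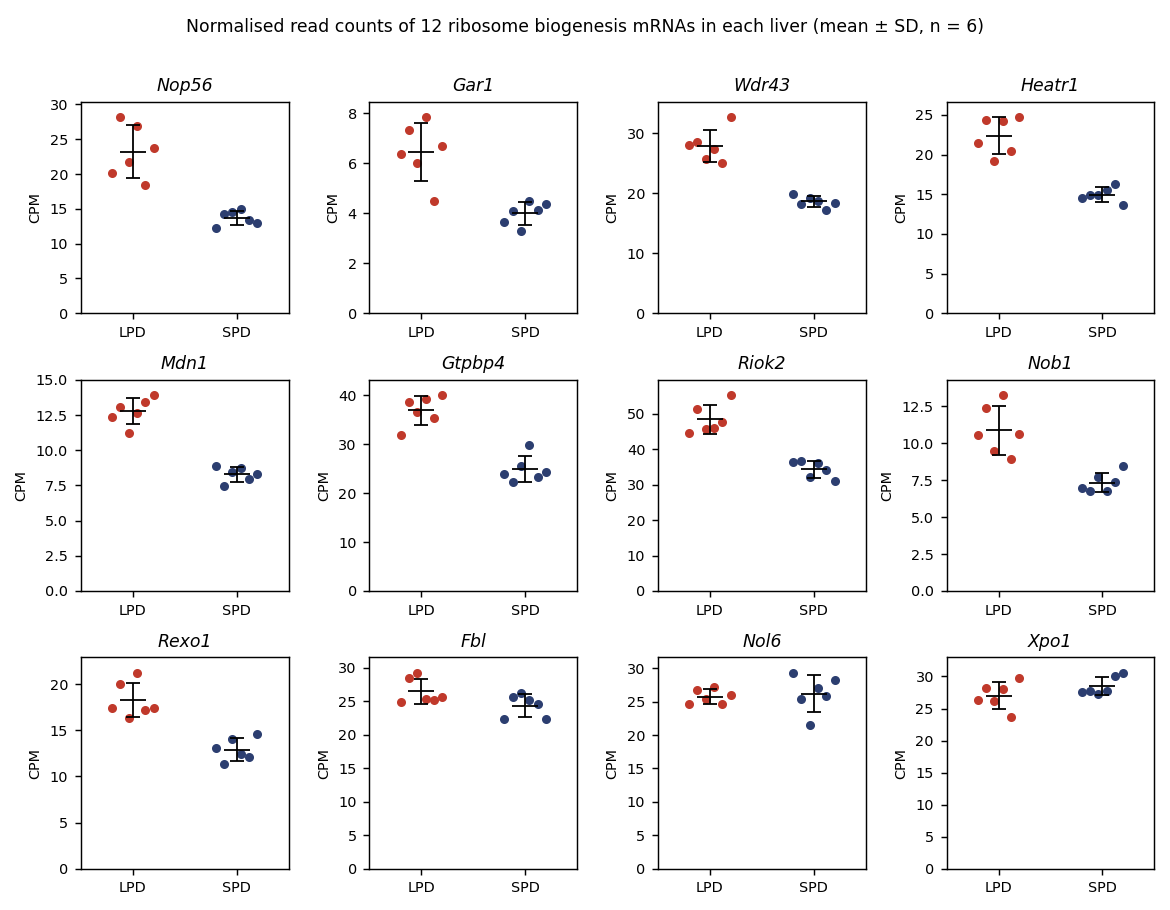
Normalised read counts (CPM, linear axis from 0) of 12 ribosome biogenesis mRNAs, 1 point per liver with the mean and SD of 6 livers. The first 9 genes show LPD livers above SPD livers without overlap, while Fbl, Nol6 and Xpo1 overlap.

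In the box C/D particle, which guides ribose methylation of rRNA, the paired scaffold proteins were higher and the enzyme was not called. Nop56 (ENSMUSG00000027405, chr2:130274430-130279313, plus strand) had the largest difference of all 70 genes. It had 18.4, 22.8 and 28.1 CPM in LPD livers, against 12.2, 13.8 and 15.0 CPM in SPD livers. The diets were apart, and the fold was 1.69 (0.76 ± 0.098, adjusted p = 2.96e-05). Nop58, its paralog (chr1:59684971-59719044, plus strand), had 17.6, 20.7 and 24.2 CPM in LPD livers, against 12.7, 13.9 and 15.3 CPM in SPD livers (0.55 ± 0.082, adjusted p = 9.65e-05). It was likewise separate. Fbl, the methyltransferase fibrillarin, had 25.0, 25.5 and 29.2 CPM in LPD livers, against 22.3, 24.9 and 26.2 CPM in SPD livers, and the groups overlapped (0.12 ± 0.061, adjusted p = 0.136).

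The box H/ACA particle, which turns uridines of rRNA into pseudouridine and is also part of telomerase, was split evenly, 2 of 4 called with a median of 0.13. Gar1 (ENSMUSG00000028010, chr3:129824912-129831396, minus strand) had 4.51, 6.55 and 7.84 CPM in LPD livers, against 3.28, 4.11 and 4.49 CPM in SPD livers. The lowest LPD liver, replicate 5, was just above the highest SPD liver, and the fold was 1.62 (0.69 ± 0.13, adjusted p = 0.000766). Dkc1, the pseudouridine synthase dyskerin, had 10.4, 12.2 and 13.3 CPM in LPD livers, against 8.55, 9.42 and 10.6 CPM in SPD livers (0.35 ± 0.084, adjusted p = 0.00425), with a slight overlap. The small core proteins Nhp2 (-0.13 ± 0.068) and Nop10 (-0.083 ± 0.077) were not called, and their levels overlapped.

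RNase MRP and RNase P, which cut rRNA and transfer RNA precursors and share most of their proteins, had 2 called genes of 8 tested (25%, near the 20.7% of all genes) and a median of 0.20. Rpp25l (ENSMUSG00000036114, chr4:41712033-41713534, minus strand) had 8.68, 9.24 and 12.2 CPM in LPD livers, against 6.14, 6.68 and 6.97 CPM in SPD livers. The groups were apart, with LPD replicate 2 highest (0.54 ± 0.093, adjusted p = 0.000340). Rpp40 was called as well (0.44 ± 0.097, adjusted p = 0.00213). Rpp38 had an estimate of similar size but a wide error (0.53 ± 0.21, adjusted p = 0.0572), at 237 counts over all SPD livers. Rpp38 was called higher by DESeq2 (adjusted p = 0.0469) and by limma-voom (0.0481), without LPD replicate 2 (0.0295), LPD replicate 6 (0.0366) or SPD replicate 5 (0.0408), and without LPD replicates 2 and 5 together (0.0303). Pop5 (0.22 ± 0.087, adjusted p = 0.0545), Pop1 (0.18 ± 0.15), Rpp30 (0.14 ± 0.097), Pop4 (-0.15 ± 0.073) and Pop7 (-0.22 ± 0.12) were not called. Pop4 was called lower without SPD replicate 4 (adjusted p = 0.0374), and Pop5 higher without LPD replicate 4 (0.0366) or SPD replicate 1 (0.00835).

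Of 6 nucleases 2 were called (33.3%), Rexo1 and Xrn2. Rexo1, of a family of RNA exonucleases (ENSMUSG00000047417, chr10:80540922-80561560, minus strand), had 16.4, 17.4 and 21.2 CPM in LPD livers, against 11.3, 12.8 and 14.6 CPM in SPD livers. Its groups were apart (0.50 ± 0.081, adjusted p = 0.000204). Xrn2, the nuclear exonuclease that trims rRNA and snoRNA precursors, had 63.1, 66.6 and 71.1 CPM in LPD livers, against 54.4, 55.7 and 60.9 CPM in SPD livers (0.23 ± 0.048, adjusted p = 0.00148), also without overlap. Xrn1, its cytoplasmic relative that degrades decapped mRNA, had 13.2, 17.97 and 20.3 CPM in LPD livers, against 15.6, 17.98 and 20.6 CPM in SPD livers. The medians were alike and the estimate was -0.050 ± 0.097 (adjusted p = 0.720). Drosha, better known for cutting microRNA precursors, had 13.1, 14.8 and 17.6 CPM in LPD livers, against 12.8, 14.5 and 14.6 CPM in SPD livers (0.097 ± 0.081, adjusted p = 0.364). Rexo5 (0.49 ± 0.20, adjusted p = 0.0653) and Rexo2 (-0.061 ± 0.057), the second known for a mitochondrial role, were not called. The Rexo5 estimate was called without LPD replicate 4 (adjusted p = 0.0404) or SPD replicate 3 (0.0301).

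The class of GTPases, AAA ATPases and factors mostly of the 60S subunit, in which Tcof1, a factor of rRNA transcription and modification, was also placed, was called in 8 of 13 cases, with a median of 0.31. Mdn1, a very large AAA ATPase that strips factors off the pre-60S particle (ENSMUSG00000058006, chr4:32657119-32775217, plus strand), had 11.2, 12.9 and 13.9 CPM in LPD livers, against 7.48, 8.40 and 8.89 CPM in SPD livers. Every LPD liver was above every SPD liver, and the fold was 1.54 (0.62 ± 0.074, adjusted p = 1.38e-05). Gtpbp4, a nucleolar GTPase (chr13:8966331-8996083, minus strand), had 32.0, 37.6 and 40.04 CPM in LPD livers, against 22.3, 24.2 and 29.9 CPM in SPD livers, without overlap (0.57 ± 0.074, adjusted p = 2.88e-05). Gnl3, the GTPase nucleostemin, had 24.8, 27.2 and 30.0 CPM in LPD livers, against 17.7, 19.3 and 21.6 CPM in SPD livers. It too was apart (0.49 ± 0.064, adjusted p = 3.18e-05). Lsg1 (0.50 ± 0.084), which recycles the export adaptor in the cytoplasm, and Gnl2 (0.31 ± 0.070) did not overlap. Tcof1 (0.41 ± 0.11) overlapped, as did Rbm28 (0.15 ± 0.055, adjusted p = 0.0381). The Rbm28 call was lost without any 1 of LPD replicates 2, 4, 5 and 6 and SPD replicates 1, 2, 3, 5 and 6, with adjusted p between 0.0528 and 0.0795.

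The remaining genes of the class of GTPases, AAA ATPases and 60S factors overlapped between the diets. Sbds, which with the GTPase Efl1 evicts eIF6 so that the subunits can join, had 49.7, 54.9 and 57.8 CPM in LPD livers, against 41.6, 46.6 and 52.5 CPM in SPD livers. The groups overlapped, although the gene was called (0.20 ± 0.062, adjusted p = 0.0198). Eif6 itself had 51.4, 62.1 and 71.9 CPM in LPD livers, against 60.7, 67.8 and 71.8 CPM in SPD livers, and was not called (-0.14 ± 0.076, adjusted p = 0.159). It was called lower without LPD replicate 3 (adjusted p = 0.0466). Efl1 (0.086 ± 0.072), Nvl (-0.025 ± 0.078) and Gnl3l (-0.048 ± 0.053) were not called. Spata5 (0.31 ± 0.12, adjusted p = 0.0517) narrowly missed, and was called without any 1 of LPD replicates 3 and 5 and SPD replicates 5 and 6.

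Export factors were called in 4 of 7 tested cases, with a median of 0.29. Nxt2, a partner of the mRNA exporter Nxf1 (ENSMUSG00000042271, chrX:142226770-142239692, plus strand), had 29.8, 31.7 and 35.0 CPM in LPD livers, against 22.8, 24.9 and 26.9 CPM in SPD livers. It had the smallest adjusted p of the class, with no overlap (0.36 ± 0.055, adjusted p = 0.000138). Nmd3, the adaptor that tethers the 60S subunit to its exportin, had 24.6, 27.4 and 28.8 CPM in LPD livers, against 19.3, 21.7 and 23.9 CPM in SPD livers (0.32 ± 0.060, adjusted p = 0.000662), and was separate as well. The exportin Xpo1 had 23.6, 27.2 and 29.8 CPM in LPD livers, against 27.3, 27.7 and 30.5 CPM in SPD livers, and was not called (-0.076 ± 0.060, adjusted p = 0.332). Nxt1 (0.43 ± 0.11) and Nxf1 (0.29 ± 0.079) were called with overlapping groups. Ran, the GTPase that powers export of many cargoes, had an estimate of -0.10 ± 0.050 (adjusted p = 0.116), and its processed copy Rasl2-9 had few counts.

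The 6 genes left untested were near or at 0. Fbll1, Nxf3 and 1700009N14Rik had 0 counts in all 12 livers. Rpp25 had 8 counts over the LPD livers and 0 over the SPD livers, Nxf2 had 0 over the LPD livers and 10 over the SPD livers, and Nxf7 had 22 over the LPD livers and 24 over the SPD livers.

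**Figure D3:**
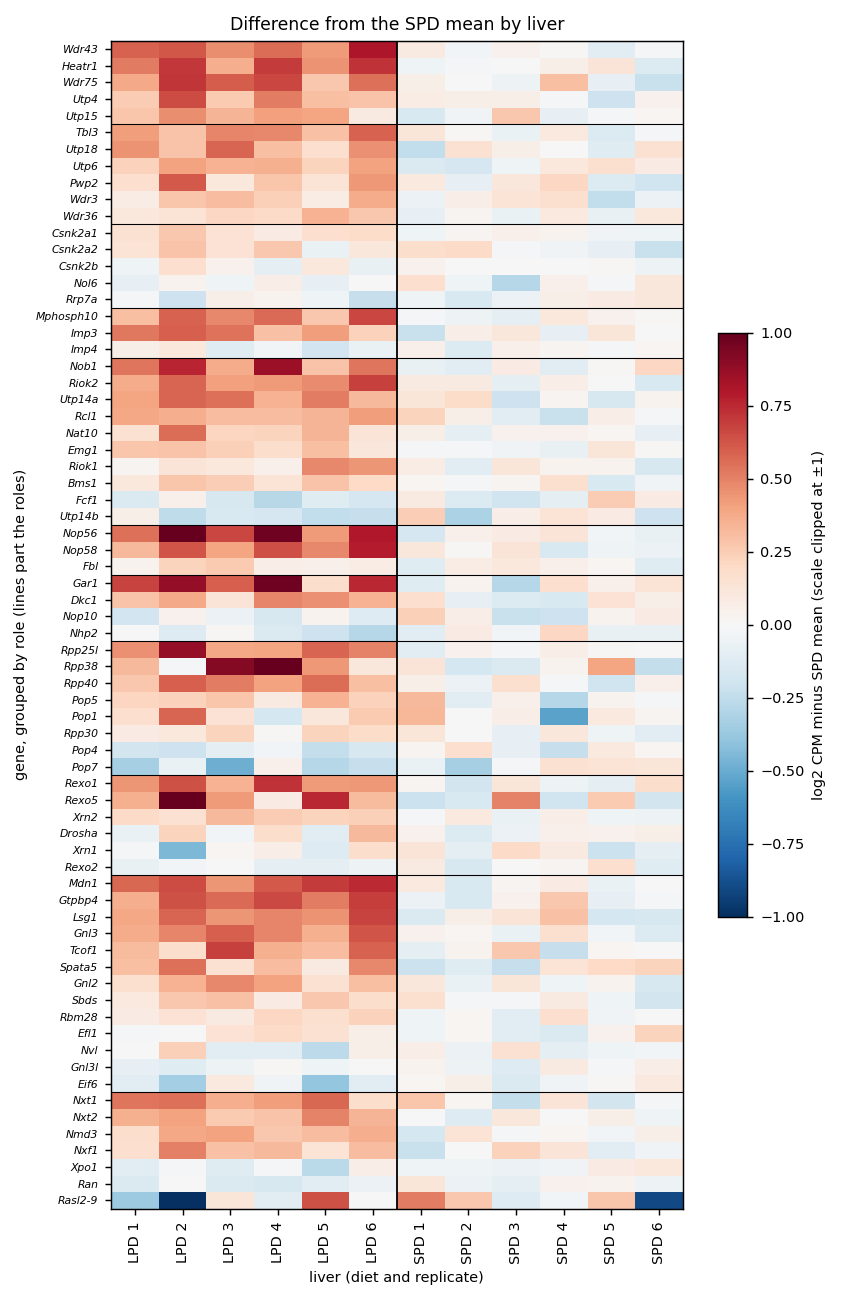
Log2 CPM of each tested gene minus its SPD mean (colour scale clipped at 1 in either direction), with livers in columns and genes in rows grouped by role. UTP-A and UTP-B genes lie above the SPD mean in all 6 LPD livers, in some only slightly, such as Wdr3 in replicates 1 and 5. Csnk2a2, Csnk2b, Imp4, Nop10 and Xpo1 lie above it in some LPD livers and below it in others.

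The difference was present in each LPD liver and uneven in size. Averaged over the 70 genes, LPD livers lay 0.188 (replicate 1) to 0.296 (replicate 2) above the SPD mean on the log2 scale, and SPD livers between -0.026 and 0.027. LPD replicate 2 was the highest LPD liver for 22 of the 70 genes and replicate 6 for 17. LPD replicate 5 was the lowest for 20 and replicate 1 for 15. Without LPD replicate 1, 41 genes were called higher, and 39 with it counted as SPD, when 16.2% of all genes were called higher. In the 4 SP1 and 4 LP4 libraries alone 32 were called, beside 13.2% of all genes. Without LPD replicates 2 and 5, which had the lowest macrophage and stellate marker levels described next, 39 were called and the median was 0.25.

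Markers of the cell types of liver had the following levels, and their part in the differences above was not tested. Over all genes tested, 20.7% were higher and 19.2% lower. Of 6 hepatocyte markers 4 were higher and 0 lower in LPD livers, with a summed level of 62650 to 90050 CPM in LPD livers and 72210 to 81640 CPM in SPD livers, and albumin had 47800 to 71210 CPM in LPD livers and 59850 to 70870 CPM in SPD livers. Of 9 macrophage markers 3 were lower (502.8 to 755.7 CPM summed in LPD livers, 667 to 1007 CPM in SPD livers), and of 9 stellate markers 4 (352.2 to 618 CPM in LPD livers, 519.8 to 716.9 CPM in SPD livers). Of 6 sinusoidal endothelial markers 2 were lower (258 to 309.7 CPM in LPD livers, 304.8 to 338.7 CPM in SPD livers), and of 5 cholangiocyte markers 1, Spp1. Krt19, Krt7, Epcam and Sox9 were not called. The cholangiocyte list summed to 43.11 to 116.9 CPM in LPD livers and 155.7 to 449.2 CPM in SPD livers, and was mostly Spp1. On average Spp1 held 63.3 of 69.8 CPM in LPD livers and 245.5 of 252.3 CPM in SPD livers. Of the 3 lymphocyte markers tested and the 4 red cell markers 0 were called by edgeR. The red cell markers summed to 1452 CPM in LPD replicate 4 and to 157 to 256 CPM in the other LPD livers. In SPD livers they summed to 623.1 to 1155 CPM, so LPD livers other than replicate 4 lay below every SPD liver. Ms4a1, a B cell marker, was at 0 in some SPD livers, and the cholangiocyte keratins Krt19 and Krt7 were below 2 CPM in every liver.

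Neighbouring steps of the pathway were read from lists of related genes. Assembly factors that the KEGG map leaves out were higher in 71 of 93 cases (76.3%, against 20.7% of all genes) and lower in 0, with a median of 0.29. For 44 of the 93 every LPD liver lay above every SPD liver, against 10.2% of all genes. Nolc1, a chaperone of snoRNPs, had 33.9, 36.8 and 42.5 CPM in LPD livers, against 20.3, 22.2 and 26.2 CPM in SPD livers (0.73 ± 0.070, adjusted p = 2.10e-06). Tsr1, a late pre-40S factor, was similar (0.74 ± 0.073, adjusted p = 2.29e-06), and Rrp12 had the largest difference (0.85 ± 0.093, adjusted p = 6.59e-06). All 3 were fully apart between the diets. The abundant nucleolar proteins nucleophosmin, Npm1 (0.26 ± 0.055), and nucleolin, Ncl (0.28 ± 0.051), were called with smaller differences, also without overlap.

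RNA polymerase I and its factors were called higher in 6 of 23 cases (26.1%, near the 20.7% of all genes) and lower in 1, with a median of 0.12. Both of its large subunits were among them: Polr1b had 17.1, 18.4 and 20.4 CPM in LPD livers, against 10.6, 12.0 and 13.8 CPM in SPD livers, without overlap (0.60 ± 0.077, adjusted p = 2.56e-05). Polr1a had 25.1, 31.2 and 40.4 CPM in LPD livers, against 20.6, 22.9 and 27.3 CPM in SPD livers, with overlap (0.47 ± 0.10, adjusted p = 0.00162). The subunit gene Cd3eap was called too (0.49 ± 0.097), and Polr2e, a subunit shared with the other polymerases, was lower (-0.26 ± 0.074, adjusted p = 0.0110). The initiation factors Rrn3 (0.16 ± 0.066, adjusted p = 0.0619) and Ubtf (0.17 ± 0.069, adjusted p = 0.0663) were not called. Of 15 exosome genes, whose products trim rRNA from its tail end, 6 were higher (40%, against 20.7% of all genes) and 0 lower. Exosc10 (0.33 ± 0.066), Tent4b (0.27 ± 0.060) and Exosc2 (0.38 ± 0.099) came first by adjusted p.

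**Figure D4:**
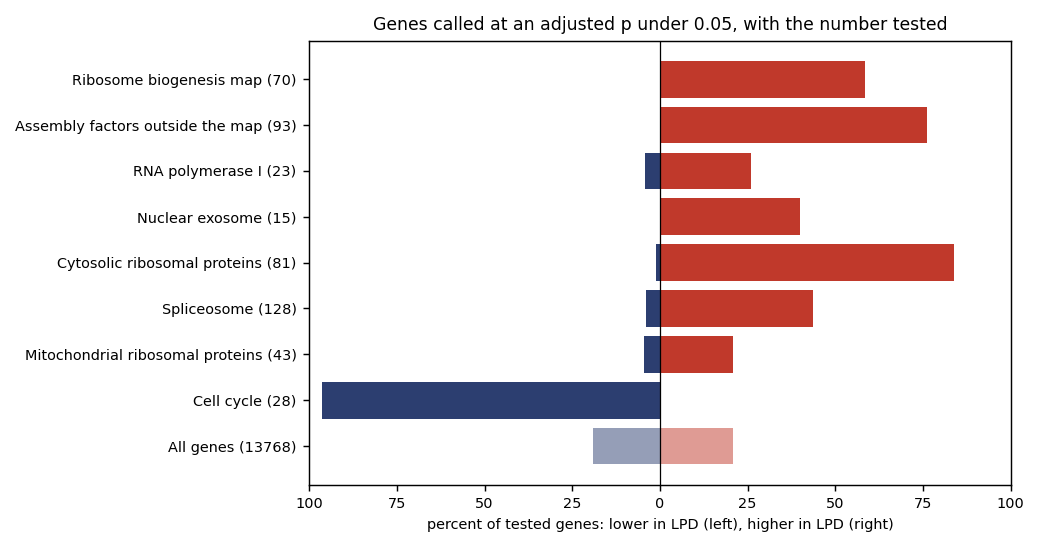
Percent of tested genes called higher (right) and lower (left) in LPD livers for the ribosome biogenesis map, related lists and all genes, with the number tested in brackets. The map stands at 58.6% higher, assembly factors outside it at 76.3%, mitochondrial ribosomal proteins at 20.9%, near the 20.7% of all genes, and cell cycle genes at 96.4% lower.

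The products that these factors assemble, the cytosolic ribosomal proteins, were higher in 68 of 81 cases (84%) and lower in 1 (median 0.27). Over all genes 20.7% were higher and 19.2% lower. Mitochondrial ribosomal proteins, which are assembled elsewhere, were higher in 9 of 43 (20.9%, near that of all genes) and lower in 2 (median 0.060). Spliceosome genes were higher in 56 of 128 (43.8%) and lower in 5 (median 0.16). Genes of aminoacyl-tRNA synthesis were higher in 14 of 44 (31.8%) and lower in 5. Differences between these shares were not tested. Myc, which encodes the factor that binds the E-box with MAX, had 9.28, 12.4 and 19.0 CPM in LPD livers, against 9.17, 10.7 and 13.5 CPM in SPD livers, and was not called (0.27 ± 0.15, adjusted p = 0.174). Max, its partner, was called higher with overlapping groups, at 23.2, 27.6 and 29.5 CPM in LPD livers, against 21.1, 23.04 and 25.0 CPM in SPD livers (0.23 ± 0.064, adjusted p = 0.0100). Of 18 genes tested of MYC partners and the nucleolar stress response 5 were higher (27.8%, near the 20.7% of all genes). With Max these were Cdkn1a (1.03 ± 0.18, adjusted p = 0.000449), an inhibitor of cell division, and 3 ribosomal protein genes. The 3 were Rpl11 (0.17 ± 0.057), Rps6 (0.37 ± 0.065) and Rpl5 (0.31 ± 0.064). Mxd4, an antagonist of MYC, was lower (-0.16 ± 0.056, adjusted p = 0.0344).

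Cell cycle genes went the other way, with 27 of 28 lower (96.4%, against 19.2% of all genes), 0 higher by edgeR and a median of -1.55. Cdk1, the kinase that starts mitosis, had 1.02, 1.62 and 2.05 CPM in LPD livers, against 4.83, 5.49 and 6.39 CPM in SPD livers (-1.84 ± 0.15, adjusted p = 5.39e-07). E2f1 (-1.55 ± 0.12) and Mcm2 (-1.30 ± 0.13) were fully below the SPD range as well. Many of these mRNAs were low, for example Ccnb1 and Plk1, with means of 0.62 and 0.35 CPM in LPD livers, against 3.23 and 1.57 CPM in SPD livers. In the same livers, then, 41 of 70 mRNAs for making ribosomes were called higher and 27 of 28 for dividing lower. Which cells carried either set was not tested.

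Within particles, the ratio of 2 members measured in the same liver does not depend on the depth of the library. The 14 pairs taken were chosen after their values were seen, most of them to set a called gene beside one not called, so a difference between the diets follows from the choice and the ratios are a description without a test. The log2 ratio of Nop56 to Fbl was -0.20 ± 0.22 in LPD livers and -0.82 ± 0.052 in SPD livers (mean ± SD, n = 6) and was higher in every LPD liver than in any SPD liver. That of Imp3 to Imp4 was -0.061 ± 0.15 in LPD livers and -0.53 ± 0.17 in SPD livers, and that of Nmd3 to Xpo1 0.0076 ± 0.13 in LPD livers and -0.39 ± 0.11 in SPD livers. For the paralogs Gnl3 and Gnl3l the ratio was 0.40 ± 0.10 in LPD livers and -0.14 ± 0.10 in SPD livers. These ratios compare each pair between the diets, since a ratio of CPM also holds the lengths of both mRNAs. Ratios that overlapped between diets included Gar1 to Nop10, at -2.55 ± 0.33 in LPD livers and -3.29 ± 0.23 in SPD livers, Nop56 to Nop58, at 0.16 ± 0.18 in LPD livers and -0.037 ± 0.18 in SPD livers, and Sbds to Efl1, at 1.92 ± 0.12 in LPD livers and 1.81 ± 0.23 in SPD livers.

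**Figure D5:**
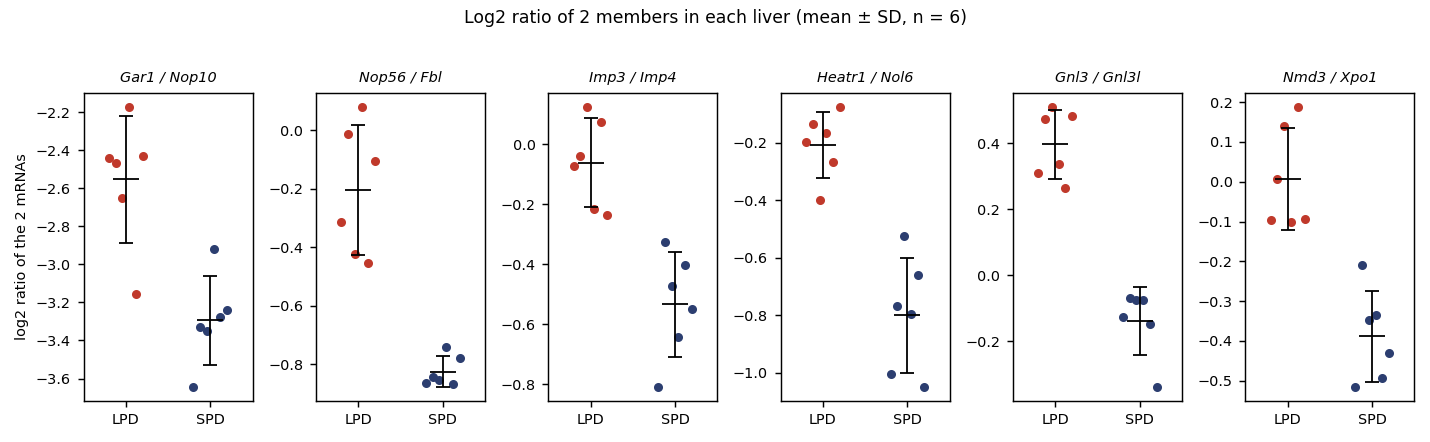
Log2 ratio of CPM of 2 members in each liver for 6 of the 14 pairs, with mean and SD of 6 livers per diet and a separate axis per pair. All pairs but Gar1 to Nop10, where LPD replicate 5 lies at -3.16, are apart between the diets.

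On a per-length scale (TPM, computed from the deposited gene lengths) the genes covered a wide range of levels. The highest in LPD livers were Csnk2b at 109 ± 3.74 TPM, Rexo2 at 102 ± 5.74 TPM and Rcl1 at 100.7 ± 6.75 TPM, with overlapping SDs. In SPD livers Csnk2b had 105 ± 2.56 TPM, Rexo2 103.5 ± 8.20 TPM and Rcl1 77.2 ± 6.73 TPM. Mdn1 was the lowest tested gene in SPD livers, at 1.32 ± 0.113 TPM in LPD livers and 0.837 ± 0.0655 TPM in SPD livers. The called genes had a median level of 11.1 TPM in LPD livers and 8.24 TPM in SPD livers, and the tested genes not called 8.09 TPM in LPD livers and 8.41 TPM in SPD livers.

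Some of the members host small nucleolar RNAs in their introns in the annotation (GENCODE M21). Nop56 hosts Snord57 and Snord110, Nop58 hosts Snord11 and Snord70, Gnl3 hosts Snord19 and Snord69, and Wdr43 hosts Snord53 and Snord92. All 4 host genes were called higher, as were 55 of all 85 tested hosts of named snoRNAs (64.7%, against 20.7% of all genes), with 2 lower. The exons of 25 tested members overlap another gene, and whether strand was used in counting is not given in the sources used here. Of the called genes 13 were among those 25. They included Wdr43, with the smallest adjusted p, and Nop56, with the largest difference, each overlapped by a gene on the opposite strand. Of the 45 tested members without such an overlap 28 were called.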

How the data were processed

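The authors deposited 1 matrix of expected counts (estimated counts, 17.08% to 18.86% of the nonzero values not whole) per gene for the 12 libraries, unscaled between libraries. Per the labels' protocols RNA was extracted with TRIzol, treated with DNase I and made into libraries with a TruSeq kit. TopHat, DESeq2 and the mm10 build come from the submitters' processing notes, which give no version and no role. How reads were counted, on which annotation and with which strand setting is not given in the sources used.

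Counts were rounded and filtered in edgeR 4.0.16 (R 4.3.3; filterByExpr, minimum count 10, minimum total 15), scaled by TMM and compared by the quasi-likelihood test over all 13768 genes, with Benjamini-Hochberg adjustment and calls at an adjusted p under 0.05. The SE was obtained as |log2 fold change|/√F. CPM use TMM-scaled totals. Log2 CPM of member ratios has a prior count of 2. The procedure was tested on simulated data. Coordinates are from GENCODE M21 (GRCm38, the assembly of mm10), where all 76 members were found.

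Members and lists were chosen with earlier results of these data known, so no set test was made. Named are the called member with the smallest adjusted p of each role, the 10 with the largest difference and a fixed set of well-known members, and of related lists up to 3 per direction. Further genes were named after their values were seen, to account for every member and for MYC partners. The 250 bases before the RefSeq start of Wdr43, which overlap its GENCODE gene, and protein sequences are not shown. The summed level of the lymphocyte markers is not reported here. Roles come from textbook knowledge. Alternatives were DESeq2 1.42.0, limma-voom 3.58.1, other scalings and filters, a replicate block and libraries left out.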

Additional observations from a re-analysis of the deposited data

Results flagged for a closer look

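Within a diet, 1 liver stood far from the other 5 in 6 of 162 groups of values examined (a gap to the nearest liver above Dixon's 95% critical share of the range), and chance gives about 1 in 20 groups. For called genes, Rpp25l reached 12.2 CPM in LPD replicate 2, against 8.68 to 9.98 CPM in the other LPD livers. Utp15 reached 13.2 CPM in SPD replicate 3, against 9.86 to 11.1 CPM in the other SPD livers, and Utp4 was lowest in SPD replicate 5, at 13.1 CPM against 14.9 to 15.9 CPM. For genes not called, Utp14b was highest in LPD replicate 1, at 10.9 CPM against 8.75 to 9.39 CPM, and Imp4 was lowest in SPD replicate 2, at 24.6 CPM against 26.9 to 28.1 CPM. The sum of UTP-C and casein kinase 2 mRNAs was highest in LPD replicate 2, at 258 CPM against 238 to 244 CPM. Rpp25l, Utp15 and Utp4 kept their calls with each of these livers left out.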

How the results depend on the processing

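Over 22 alternatives the number of members called higher ranged from 32 to 42, and 29 of the 41 were called under each of them. With single livers left out the number was 39 to 42, the number called lower 0 to 1 (Eif6 or Pop4) and the median 0.2377 to 0.3058, lowest without LPD replicate 2. In the SP1 and LP4 libraries alone, with 8 libraries in place of 12, the number of all genes called higher in LPD was 1827 and that of all genes called lower in LPD 1693, and 3 of 11 roles had most of their tested genes called higher, against 7 with all libraries. DESeq2 called 41 members, limma-voom 42, upper quartile scaling and no filter 40 each. Calls lost in some alternative were those of Rbm28 (15), Pwp2 (8), Wdr3 (7), Sbds (2) and, in 1 each, of 8 others. In the SP1 and LP4 libraries alone these included Bms1, Csnk2a1, Nat10, Nxf1, Tcof1 and Wdr36, and with LPD replicate 1 counted as SPD they were Nxt1 and Utp18; the cause was not tested. Of 1539 values of single genes, 13 changed sign, none of a called gene. With single livers left out, the log2 fold change ranged from -0.0808 to 0.0189 for Nvl (positive without LPD replicate 5 or SPD replicate 3), -0.0122 to 0.0448 for Csnk2b (negative without LPD replicate 2), -0.0745 to 0.0110 for Nol6 (positive without SPD replicate 1), -0.3716 to 0.0220 for Rasl2-9 and -0.0953 to 0.0197 for Xrn1 (both positive without LPD replicate 2). The other changes of sign were Imp4 (0.0081), Nol6 (0.0126) and Rrp7a (0.0197) in the SP1 and LP4 libraries alone, Csnk2b (-0.0431) and Xrn1 (0.0561) without LPD replicates 2 and 5, Csnk2b by limma-voom (-0.0065) and Nol6 with LPD replicate 1 counted as SPD (0.0030).

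Replicate numbers did not pair the samples: libraries with the same number correlated at -0.0539 to 0.0968 in their deviations, 0 of 6 over 0.1, and 1 of 6 LPD libraries was closest to its own number. With the replicate number as a block, 41 members were called higher, 40 of them the same genes, with Pop5 gained and Pwp2 lost. The number of all genes called higher in LPD was 2668 and that of all genes called lower in LPD 2562.

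Counts of low genes limit what can be read from Rpp38, Rexo5, Rasl2-9 and the 6 untested members. A gene not called is not shown to be equal between diets.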
